A study of Mus musculus with 16 samples.

Results

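The comparison set injured shoulder muscle of MRL/MpJ mice (MRL) against injured shoulder muscle of C57BL/6J mice (BL6), across every gene in the deposited count table. It used the 4 MRL and the 4 BL6 libraries labelled as operated, chosen by their column names, which make up 8 of the 16 libraries of the series. MRL/MpJ is an inbred strain known for closing ear wounds with little scarring and for a tendency to autoimmunity, and C57BL/6J is the common laboratory strain from which the mouse reference genome was made. The operated groups had lost the tendon of a rotator cuff muscle (tenectomy) and the nerve supply to that muscle (denervation), and the remaining 4 MRL and 4 BL6 libraries came from unoperated controls. The sources differ on which rotator cuff muscle was taken (infraspinatus in the design text, supraspinatus in the labels), so it is called only a rotator cuff muscle here. Both strains carry their own unmodified genomes as far as the labels say, and no age, sex, time after surgery, pooling of animals or treatment other than the surgery is given in the sources used here. The labels do not say that the replicates of a group were separate animals, so the p-values measure only the spread between these libraries.

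A muscle cut from its tendon and its nerve is neither stretched nor driven. Its fibres shrink through the ubiquitin-proteasome system and autophagy, genes that are silent in innervated fibres such as acetylcholine receptor subunits come on outside the synapse, and macrophages, fibroblasts and fat cells move into the space between fibres. Inbred strains also differ in their DNA sequence, which sets stable differences in the level of many transcripts whether or not a muscle is injured, so the same strain comparison in unoperated muscle is the background here.

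The 8 operated libraries held 24323862 to 33531139 counts over the 11710 genes of the table, and the 8 unoperated libraries 30309957 to 43552964. Skeletal muscle markers carried 46916 to 118316 counts per 1000000 (CPM) in the operated libraries, and none of the 7 passed the strain test by edgeR, DESeq2 or limma voom or had an unadjusted p under 0.05. BL6 operated 4 had the lowest mean correlation of log2 CPM with the other replicates of its group, 0.938, followed by MRL operated 4 at 0.955 and BL6 operated 2 at 0.956, and the other operated libraries lay at 0.972 to 0.976. BL6 operated 4 carried summed levels of 935 CPM for the macrophage list and 19265 CPM for the collagen and matrix list, against at most 281 and 6321 CPM in the other BL6 operated libraries. MRL operated 4 carried 11.8% mitochondrially encoded counts, against 17.4% to 24.9% in the other operated libraries. As a check of the strain labels, 111 genes that separate the unoperated strains at least 8-fold were read in each operated library. Of them, 104 to 107 lay nearer the MRL level in the MRL libraries and 9 to 16 in the BL6 libraries. This check does not read the surgery labels.

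In operated muscle 1507 of 11709 tested genes differed between the strains, with 890 higher and 617 lower in MRL (edgeR's quasi-likelihood test on 16 libraries, Benjamini-Hochberg adjusted p under 0.05). That is 12.9% of the genes tested, 7.6% for higher and 5.27% for lower. A call here means a gene past that threshold, and log2 fold changes are MRL minus BL6. The median log2 fold change over all tested genes was -0.01. Higher genes made up 59.1% of the calls with the usual scaling by trimmed means (TMM) and 72.2%, 994 of 1377, when libraries were scaled by their totals alone. At a change of 2-fold or more there were 413 calls (3.53%), 193 higher (1.65%) and 220 lower (1.88%). In 1229 of the 1507 genes every library of one strain lay above every library of the other, and groups did not overlap in 1589 (13.6%) of all genes tested. A fit of the 8 operated libraries alone, which estimates the spread from fewer libraries, called 575 genes, of which 574 were among the 1507. In it 1506 of the 1507 had an unadjusted p under 0.05. Both fits use the same operated counts, so this overlap is a description and not separate support.

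**Figure D1:**
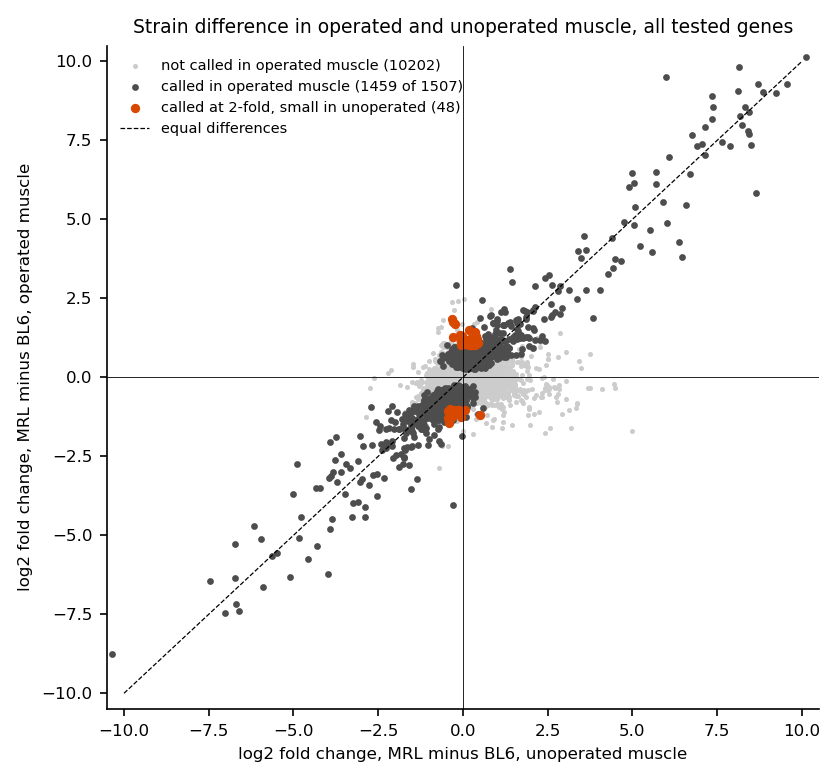
Each point is a tested gene, with the log2 fold change MRL minus BL6 in unoperated muscle on the x axis and in operated muscle on the y axis. The 48 genes called in operated muscle at 2-fold or more with a small difference in unoperated muscle lie along the vertical midline, while most genes with large changes lie near the diagonal.

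The unoperated muscles of the strains differed in 1216 genes (10.4%), with 588 higher (5.02%) and 628 lower (5.36%) in MRL. Of the 1216, 611 were also called in operated muscle, all but 5 in the same direction. The other 896 operated calls, 59.5% of the total, were not called in unoperated muscle. Not being called is not the same as being equal: of the 896, 652 pointed the same way in unoperated muscle and 202 had an unadjusted p under 0.05 there. In 824 of the 896 the 95% interval of the unoperated difference lay inside a 2-fold change in either direction. The test of the difference between the strain effects (operated minus unoperated, an interaction term) called 11 of the 896, and 477 had an unadjusted interaction p under 0.05, as did 1843 of all 11709 genes (15.7%). The 896 were picked for a call in 1 comparison and not the other, so 477 is a description. Over all genes it called 29 (0.248%), of which 20 were called in operated muscle.

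Most large differences were present without surgery: 313 of the 413 calls at 2-fold or more were also called in unoperated muscle. Of the other 100, 48 genes (0.41% of those tested) had an unoperated difference whose 95% interval lay within 2-fold in both directions. These 48, 31 higher and 17 lower in operated MRL muscle, are the strain differences found after surgery and not without it by the rule used, and 6 of them also passed the interaction test. All 31 higher genes code for protein, and none has a near-identical copy among annotated transcripts by the rule given below. Their median log2 fold change was 1.14 in operated and 0.19 in unoperated muscle, and for the 17 lower genes it was -1.09 and -0.26. The BL6 mean lay below its unoperated value in 28 of the 31 higher genes and above it in all 17 lower genes. The MRL mean moved the opposite way, up in 8 of the 31 and down in 5 of the 17, and the BL6 mean moved farther than the MRL mean in 24 of 31 and 15 of 17. These counts describe genes chosen by the same contrast and are not a test of either strain's response.

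The higher genes in this set included Gm38393, Fv1, Ankrd1, Mfsd4a, Zfp605, Ccne2, Rasd2, Aqp4, Sync, Rab11fip2, Lrp2bp, Lypla1, Gbp3, Tspan33, Ddx3y, Dach1, Kcng4, Gcn1l1, Aldh1l2, Serpinb1c, Scai, Slc12a2, Lrp6, Zfp758, Fsd2, Lcorl, Lnpk, Pggt1b, Rbm41 and Znrf3, with log2 fold changes from 1.84 for Gm38393 down to 1.01 for Znrf3. The lower genes were 2310020H05Rik, Fxyd7, Cradd, Mgp, Flcn, Tppp3, Sox10, Klf2, Il11ra1, Slc10a6, Zfp963, Sult5a1, Agfg2, Cldn19, Tubb2b, Gfra2 and Poc1a, from -1.43 for 2310020H05Rik to -1.004 for Poc1a. Of the 48, 36 were called in each of the 16 fits that left out 1 library, and 11 also kept the small unoperated difference in each, among them Fv1, Mfsd4a, Zfp605, Ccne2, Lrp2bp, Lypla1, Ddx3y, Gcn1l1, Cradd and Fxyd7. Sync, Mgp and Serpinb1c were called in only 3, 3 and 6 of the 16. The size of the set rose to 104 without BL6 operated 2 and to 87 without MRL operated 3. The authors' deposited table called 43 of the 48 in operated muscle and left 42 of those uncalled in unoperated muscle. Outside the 48, genes it left uncalled in operated muscle included Kcnc4, Tmf1, Dad1, Fbxo30, Hdac9, Ifit1, Ifit3b, Irf1, H2-Ab1 and H2-Eb1, all called here.

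Lypla1 (chromosome 1, 4807788 to 4848410), which codes for a thioesterase that removes palmitate from proteins, stood at 21.6, 26.2, 22.3 and 16.8 CPM in BL6 operated muscle and at 46.9, 45.9, 45.3 and 55.9 CPM in MRL operated muscle, beside unoperated means of 50.04 ± 6.8 and 60.7 ± 10.55 CPM (SD, n = 4 each). The MRL operated libraries lay within the range of unoperated muscle and the BL6 operated libraries lay below all others, with no overlap between the operated groups. The log2 fold change was 1.16 (SE 0.15, adjusted p = 7.1e-05 by edgeR's quasi-likelihood test) in operated muscle and 0.28 (95% interval -0.04 to 0.59, adjusted p = 0.272) in unoperated muscle, and the difference between them was not called (adjusted p = 0.101). Ddx3y, an RNA helicase gene of the Y chromosome (1260771 to 1286629), stood at 27.1, 31.5, 23.8 and 23.3 CPM in BL6 operated muscle and at 64.6, 49.5, 56.3 and 62.2 CPM in MRL operated muscle. Its unoperated means were 69.3 ± 6.62 CPM in BL6 and 66.1 ± 14.7 CPM in MRL (SD, n = 4 each), so the operated groups did not overlap while the unoperated groups did. The Ddx3y difference was 1.14 in operated and -0.07 in unoperated muscle, and the interaction test called it (adjusted p = 0.0387, edgeR's quasi-likelihood test). Rab11fip2, an adaptor of recycling endosomes, ran from 4.47 to 5.27 CPM in BL6 operated and from 9.99 to 12.2 CPM in MRL operated muscle (log2 fold change 1.20).

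Mfsd4a, a member of the major facilitator family of transporters, ran from 3.21 to 6.16 CPM in BL6 operated and from 9.23 to 19.1 CPM in MRL operated muscle (log2 fold change 1.44, unoperated 0.37). Lrp2bp, which codes for a protein that binds the endocytic receptor megalin, ran from 5.46 to 8.27 and from 10.97 to 18.9 CPM. The tetraspanin gene Tspan33 ran from 2.87 to 4.15 and from 5.64 to 10.9 CPM. In these last 2 genes the MRL mean was above its unoperated value and the BL6 mean below it. Ankrd1, which codes for a stretch-responsive ankyrin repeat protein bound to titin, was far above its unoperated level in both strains. It stood at 75.9, 50.6, 91.5 and 151 CPM in BL6 operated muscle and at 165, 186, 183 and 511 CPM in MRL operated muscle, against unoperated means of 13.6 and 15.5 CPM. The highest MRL value came from MRL operated 4, and the log2 fold change of 1.504 (adjusted p = 0.0119, edgeR's quasi-likelihood test) was 0.94 without that library (adjusted p = 0.0422).

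Among the lower genes, Cradd, an adaptor that brings caspase-2 to its activating complex, stood at 6.58, 8.99, 7.05 and 6.37 CPM in BL6 operated and at 3.05, 3.09, 2.41 and 3.34 CPM in MRL operated muscle (log2 fold change -1.28, adjusted p = 5.44e-05, edgeR's quasi-likelihood test). The groups did not overlap. Without surgery the Cradd means were 6.96 CPM in BL6 and 5.16 CPM in MRL, so MRL was already the lower strain. That log2 fold change of -0.43 was not called (unadjusted p = 0.0152, adjusted p = 0.102, edgeR's quasi-likelihood test). The difference between the Cradd strain effects was -0.85 and was not called either (adjusted p = 0.13, edgeR's quasi-likelihood test). Flcn codes for folliculin, a nutrient-sensing protein of the lysosome surface, and ran from 88.7 to 138 CPM in BL6 and from 28.5 to 72.5 CPM in MRL operated muscle. Tppp3, a tubulin-binding protein gene that also marks cells of the tendon sheath, stood at 246, 287, 145 and 126 CPM in BL6 operated and at 83.2, 79.0, 108 and 84.0 CPM in MRL operated muscle. The Tppp3 groups did not overlap, the unoperated means were 56.7 CPM in BL6 and 80.4 CPM in MRL, and the difference between the strain effects was -1.69 (adjusted p = 0.0442, edgeR's quasi-likelihood test). Of 5 tested tendon markers none was called by edgeR, DESeq2 or limma voom and 1 had an unadjusted p under 0.05, with a median log2 fold change of -0.55 and summed levels of 228 to 583 CPM in MRL and 258 to 1164 CPM in BL6 operated libraries, and their part in the Tppp3 result was not tested.

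Klf2, a transcription factor of endothelial and immune cells that responds to blood flow, ran from 47.4 to 116 CPM in BL6 and from 24.1 to 45.6 CPM in MRL operated muscle, against unoperated means of 16.3 and 14.5 CPM. None of 10 endothelial markers was called by edgeR, DESeq2 or limma voom, 2 had an unadjusted p under 0.05, and the median log2 fold change was -0.34. Il11ra1, the interleukin 11 receptor alpha chain, ran from 61.4 to 141 CPM in BL6 and from 33.7 to 54.2 CPM in MRL operated muscle, and it has a near-identical copy, so its reads may be split between copies. Agfg2, a protein with an Arf GTPase-activating domain, ran from 10.01 to 16.2 and from 5.16 to 7.42 CPM. Sox10, the defining transcription factor of Schwann cells, ran from 2.79 to 7.10 CPM in BL6 and from 1.66 to 3.05 CPM in MRL operated muscle, which overlap, and its call was lost in 4 of the 16 fits with 1 library left out (without BL6 operated 1 or 4, or MRL operated 2 or 4). It was the only call of edgeR's quasi-likelihood test among 8 tested Schwann cell markers (12.5%, against 12.9% of all genes). Of the 8, DESeq2 called 2 lower and 5 had an unadjusted p under 0.05. All 8 had negative log2 fold changes (median -0.74), with summed levels of 133 to 387 CPM in MRL and 233 to 574 CPM in BL6. In whole muscle, fewer cells of a type and less RNA per cell cannot be told apart.

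**Figure D2:**
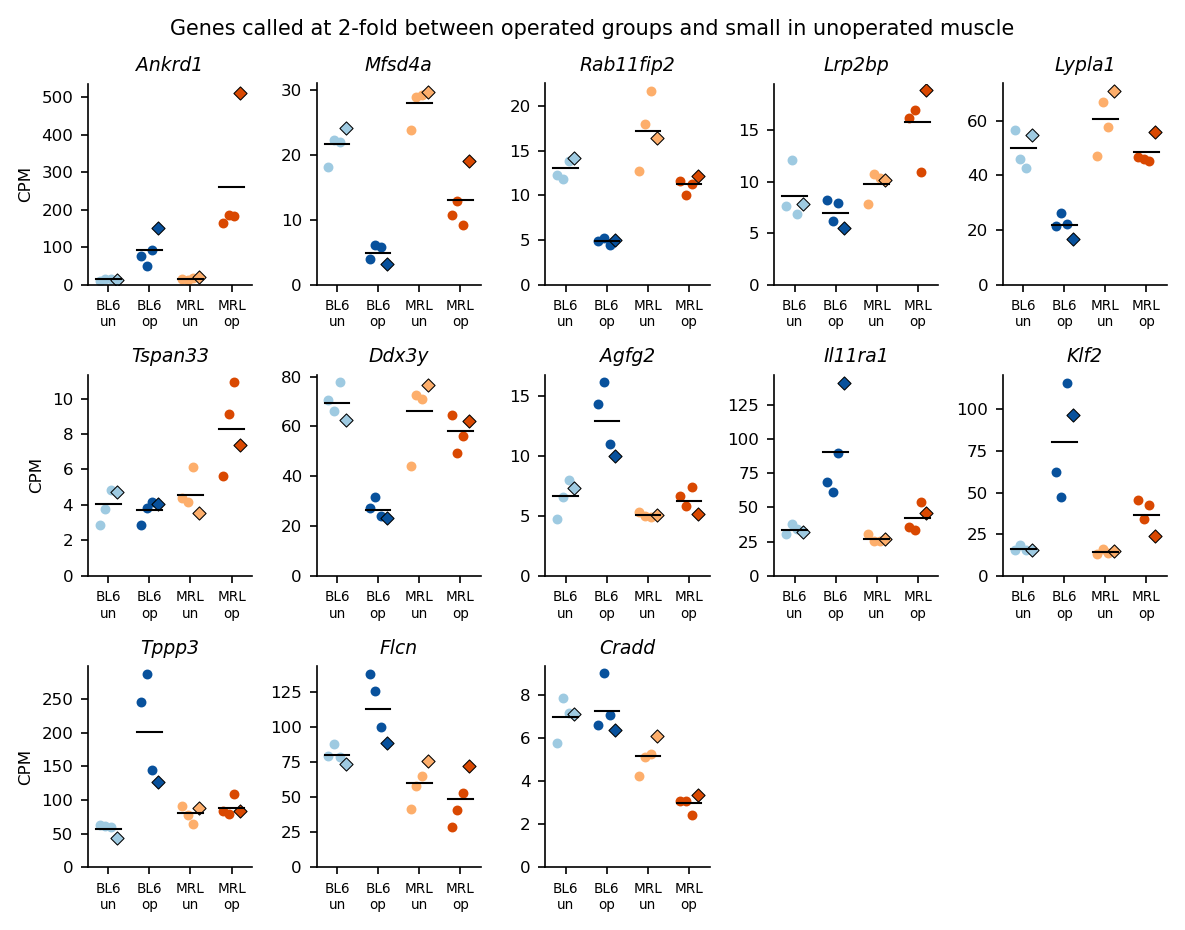
CPM in each library for genes called in operated muscle with a small unoperated difference; points are libraries, diamonds mark replicate 4 and black bars the group means. The Rab11fip2 points of BL6 operated muscle, 4.47 to 5.27 CPM, lie below those of the other 3 groups.

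The interaction test named genes whose strain difference changed in size or sign with surgery. Matr3, a nuclear matrix protein that binds RNA, stood at 52.0, 51.5, 45.6 and 46.0 CPM in BL6 operated and at 83.6, 73.4, 79.8 and 78.6 CPM in MRL operated muscle, with a log2 fold change of 0.69 in operated and -0.07 in unoperated muscle (interaction adjusted p = 0.0311, edgeR's quasi-likelihood test). Gcn1l1, the ribosome-bound activator of the Gcn2 kinase, differed by 1.09 in operated and 0.18 in unoperated muscle, and Pcmtd2 by 0.95 and -0.23. Ccdc28b, a gene tied to cilia, was lower in MRL in both settings, by -1.83 after surgery and -0.87 without it. Tcea1, an elongation factor of RNA polymerase II, was lower by -3.23 and -1.36. For Ccdc28b the MRL means were 13.6 and 14.6 CPM with and without surgery and the BL6 means 48.2 and 26.7 CPM, so the gap widened through the BL6 libraries.

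In 5 genes both strain comparisons were called in opposite directions: Bche, Kcnc4, Nup160 and Tmf1 were higher in MRL after surgery and lower without it, and Dad1 the reverse. Bche, which codes for butyrylcholinesterase, an enzyme that splits choline esters, stood at 5.13, 5.11, 5.87 and 5.69 CPM in BL6 operated and at 7.55, 7.42, 6.92 and 9.29 CPM in MRL operated muscle, while the unoperated means were 12.7 ± 1.01 CPM in BL6 and 8.01 ± 1.34 CPM in MRL (SD, n = 4 each). The log2 fold changes were 0.52 and -0.67, and the MRL mean differed little between settings while the BL6 mean was more than 2-fold lower after surgery. Kcnc4, a voltage-gated potassium channel, differed by 0.53 and -0.65, Nup160, a nuclear pore subunit, by 0.53 and -0.43, and Tmf1, a Golgi-associated protein, by 0.35 and -0.58. All 4 passed the interaction test and Dad1, a subunit of the oligosaccharyltransferase, did not (adjusted p = 0.0554, edgeR's quasi-likelihood test). The operated calls of these 5 genes were lost in 2 (Bche), 7 (Kcnc4), 11 (Tmf1) and 6 (Dad1) of the 16 fits with 1 library left out and in none for Nup160. In the authors' deposited edgeR comparison of operated muscle the adjusted p was 0.058 for Kcnc4, 0.066 for Tmf1 and 0.056 for Dad1. Bche and Nup160 were called there. Interaction calls depended on single libraries: there were 1 to 5 without any 1 of BL6 unoperated 1, 2, 3 and 4, BL6 operated 1 and 3, MRL unoperated 1, 2 and 4 and MRL operated 1, and 69 without BL6 operated 2.

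The largest differences were present in both settings. By the naming rule the largest rises in operated MRL muscle were in H2-Ea-ps, C1rb, Hal, Vcp-rs, Opn1mw, Hsp25-ps1, AA465934, Pianp, Acaa1b and Kbtbd12, and the largest falls in Rpl26, Rpl14, Rps2, Hba-a2, Rpl34, Rab6b, Rpl35a, Pttg1, Rpl29 and Rps18. All 20 were called under every alternative that kept copies of genes apart, the fit of the 8 operated libraries included, and all 20 were called in unoperated muscle too. Kbtbd12, a kelch-repeat protein gene, ran from 5.37 to 17.4 CPM in BL6 and from 64.5 to 162 CPM in MRL operated muscle (log2 fold change 3.25, unoperated 2.53). Opn1mw, the green-cone opsin gene on the X chromosome, ran from 0.142 to 0.404 CPM in BL6 and from 12.8 to 17.9999 CPM in MRL. Pttg1, which codes for securin, an inhibitor of sister chromatid separation, ran from 69.8 to 153 CPM in BL6 and from 2.47 to 4.75 CPM in MRL (log2 fold change -5.10, unoperated -4.82). Rab6b, a Golgi GTPase gene, ran from 11.5 to 14.1 CPM and from 0.0694 to 0.639 CPM.

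Many of the largest changes were in genes with a near-identical copy elsewhere in the genome, such as a processed pseudogene, an intronless copy made from a reverse-transcribed messenger. A copy was counted where the gene's longest annotated transcript matched a transcript of another locus at 95% identity or more over at least 50% of its length. Shorter matches and copies outside the annotation were missed by this rule. Processed pseudogenes were 36 of the 193 calls higher by 2-fold or more (18.7%), 2 of the 220 lower ones (0.909%) and 77 of all 11709 genes tested (0.658%). Genes with a near-identical copy were 45 of the 193 (23.3%), 35 of the 220 (15.9%) and 337 of all genes (2.88%). A read from such a gene can be assigned to its copy only by the few bases at which they differ. How the authors' counting treated reads that fit several places is not given in the sources used here, so the separate values of copies are uncertain. A summed value holds only the tested copies, and reads placed at other copies or left uncounted are missing from it.

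The 4 pairs shown here come from the 16 families with members called at 2-fold or more in both directions and were picked with their values known, to show how gene and copy compare base by base. Each line is a 60-base stretch of coding sequence, 5′ to 3′ on the gene's own strand, or the matching stretch of the copy, from the GRCm38 (mm10) reference, which is C57BL/6J sequence. Capitals mark the bases at which gene and copy differ within the window.
Myl1: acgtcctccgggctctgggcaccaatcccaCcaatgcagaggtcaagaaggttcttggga
Mylf-ps: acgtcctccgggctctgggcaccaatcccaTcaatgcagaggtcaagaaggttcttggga
Hspa8: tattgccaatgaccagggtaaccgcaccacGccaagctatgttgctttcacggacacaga
Gm15459: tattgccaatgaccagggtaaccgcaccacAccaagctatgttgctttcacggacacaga
Vcp: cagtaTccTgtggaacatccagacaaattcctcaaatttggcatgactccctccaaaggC
Vcp-rs: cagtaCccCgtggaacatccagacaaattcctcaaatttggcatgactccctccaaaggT
Rpl14: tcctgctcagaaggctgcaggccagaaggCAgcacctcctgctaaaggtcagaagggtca
Rpl14-ps1: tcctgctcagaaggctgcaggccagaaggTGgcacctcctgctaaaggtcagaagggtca

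Hspa8 (chromosome 9, 40800984 to 40810087), the constitutive heat shock protein 70, and Gm15459 (chromosome 5, 5781615 to 5783555) differed at 5 of 1941 aligned bases. Hspa8 stood at 414, 390, 315 and 284 CPM in BL6 operated and at 14.05, 17.97, 14.2 and 18.6 CPM in MRL operated muscle, while Gm15459 stood at 0.121, 0.349, 0 and 0.370 CPM in BL6 and at 14.3, 20.9, 14.6 and 66.5 CPM in MRL. Gene and copy thus moved in opposite directions, and their sum was still lower in MRL, by -2.95 on the log2 scale (SE 0.30, adjusted p = 6.23e-06, edgeR's quasi-likelihood test) in operated and by -1.12 in unoperated muscle. Gm15459 has 5 near-identical copies, of which only 1, Hspa8, was tested, so the sum leaves out the others. Myl1 (chromosome 1, 66924295 to 66945404), an essential light chain of fast myosin, and Mylf-ps (chromosome 12) differed at 3 of 421 aligned bases. Myl1 ran from 4680.2 to 7631 CPM in BL6 and from 2221 to 2969 CPM in MRL operated muscle. The copy held at most 58.1 CPM in any operated library, and the sum of both remained lower in MRL, by -1.34.

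Vcp (chromosome 4, 42979963 to 43000507), the p97 ATPase that pulls ubiquitylated proteins out of complexes, and its copy on the X chromosome differed at 8 bases and had gaps at 15 more over 2421 aligned positions. Vcp ran from 104 to 135 CPM in BL6 and from 23.4 to 40.1 CPM in MRL operated muscle, a log2 fold change of -1.93, and Vcp-rs from 0.227 to 0.581 and from 17.6 to 72.5 CPM, a change of 6.48. The sum of both differed by -0.86 (adjusted p = 0.0247, edgeR's quasi-likelihood test). Rpl14 (chromosome 9, 120571444 to 120574654), a subunit of the large ribosomal particle, and its copy on chromosome 7 differed at 4 bases and had gaps at 3 more over 654 aligned positions. Rpl14 changed by -7.18 and Rpl14-ps1 by 2.14, and their sum by -0.44 (adjusted p = 0.0437, edgeR's quasi-likelihood test).

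Across the 49 families of such copies with a member called at 2-fold or more, the summed value was under 2-fold in 37, was not called in 29, and was called at 2-fold or more in 11. In 16 families members were called at 2-fold or more in both directions, and the sum was under 2-fold in 11 of those. Hba-a1 and Hba-a2, the 2 alpha globin genes, summed to 198 CPM in BL6 and 533 CPM in MRL operated muscle with no call (adjusted p = 0.222, edgeR's quasi-likelihood test), although Hba-a2 alone was lower in MRL by -6.46. With copies summed, operated muscle had 1433 calls and 355 at 2-fold or more, 155 higher and 200 lower.

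**Figure D3:**
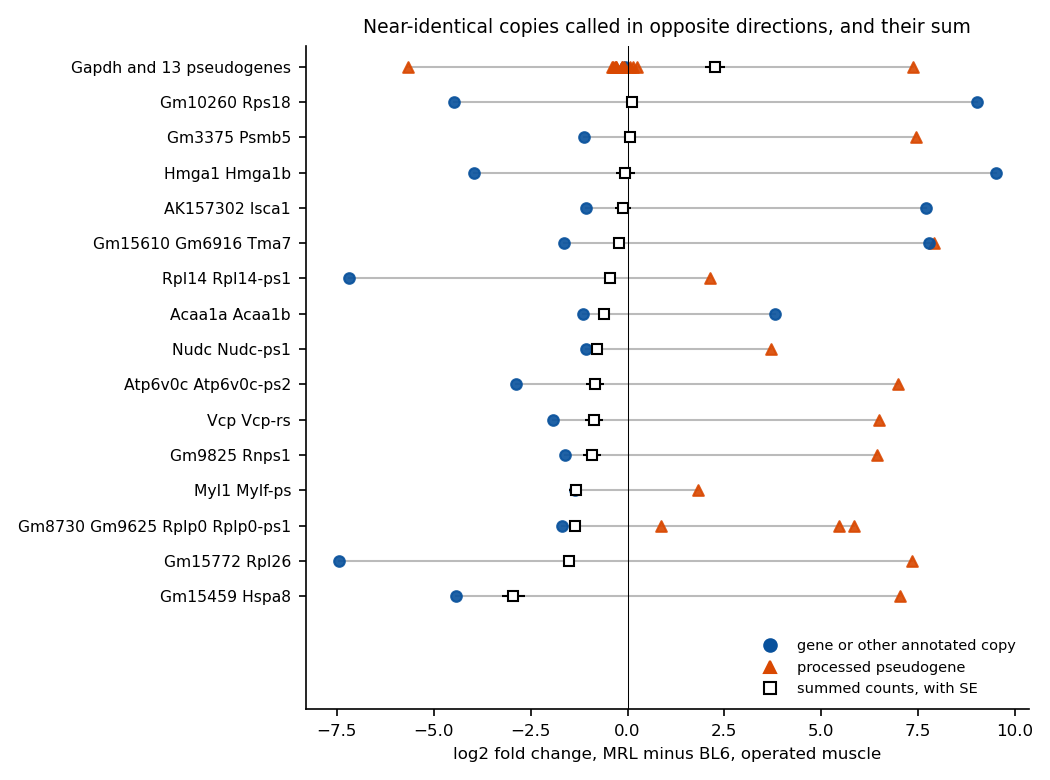
Log2 fold change MRL minus BL6 in operated muscle for members of near-identical copy families, with circles for genes, triangles for processed pseudogenes and squares for the summed value with its SE. For Vcp and Vcp-rs the members lie at -1.93 and 6.48 and the square at -0.86, and for Hspa8 and Gm15459 the square lies at -2.95.

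The major histocompatibility complex (MHC) carries different alleles in the 2 strains, and some of its genes differed in operated and in unoperated muscle. Of 20 tested class I and peptide loading genes, 2 were higher and 3 lower in operated MRL muscle (25% called, against 12.9% of all genes). Their median log2 fold change was -0.20, against -0.01 over all genes. H2-Q2 had 1 count in the 4 BL6 operated libraries together and ran from 6.16 to 9.30 CPM in MRL. H2-T24 was higher in MRL (log2 fold change 1.26), and H2-Q7 (-3.69), H2-Q6 (-1.47) and H2-D1 (-1.09), a classical antigen-presenting molecule, were lower. All 5 were called in unoperated muscle in the same direction, where 3 of the 20 were higher and 3 lower. H2-D1 stood at 186, 148, 173 and 292 CPM in BL6 operated and at 111, 86.2, 108 and 70.9 CPM in MRL operated muscle, without overlap. Reads of both strains were aligned to C57BL/6J sequence. Whether MRL reads of differing alleles were lost or placed at another MHC gene was not tested, here or for class II genes.

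Among 7 tested class II genes, which present peptides on macrophages, dendritic cells and B cells, H2-Ea-ps was higher and H2-Eb1 and H2-Ab1 were lower in operated MRL muscle. These calls are 42.9% of the list, against 12.9% of all genes. H2-Ea-ps (chromosome 17, 34341959 to 34344645), a gene that C57BL/6 mice carry in a broken form, had 1 count in the 4 BL6 operated libraries together and stood at 8.53, 9.78, 20.9 and 17.5 CPM in MRL operated muscle. H2-Eb1 stood at 67.7, 38.0, 71.3 and 241 CPM in BL6 and at 21.9, 21.1, 50.5 and 40.9 CPM in MRL (log2 fold change -1.64, adjusted p = 0.0451, edgeR's quasi-likelihood test), and H2-Ab1 at 69.9, 42.5, 78.9 and 252 CPM and at 24.4, 27.1, 56.4 and 40.3 CPM (-1.58, adjusted p = 0.0418). The groups overlapped in both, and BL6 operated 4 was the highest library. Without BL6 operated 4 the changes were -0.81 (adjusted p = 0.193) and -0.78 (adjusted p = 0.172), and the calls were lost in 11 and 10 of the 16 fits with 1 library left out and with limma voom. The list median was -1.15 with that library and -0.44 without it.

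The interferon response list held 37 tested genes. Of these, 2 were higher and 6 lower in operated MRL muscle (21.6% called, against 12.9% of all genes, median -0.18). In unoperated muscle 1 was higher and 12 were lower (median -0.50). Rsad2, which codes for the antiviral enzyme viperin, stood at 17.5, 18.9, 22.3 and 11.7 CPM in BL6 operated and at 5.44, 2.39, 6.85 and 1.61 CPM in MRL operated muscle (log2 fold change -2.12, unoperated -2.17). Ifit3 (-1.46), Ifi35 (-1.04), Ifit1 (-1.03), the guanylate-binding protein gene Gbp2 (-0.76) and the transcription factor gene Irf1 (-0.48) were lower as well. Gbp3 (1.15) and Ifit3b (0.84) were higher, but Ifit3 and Ifit3b are near-identical copies of each other and their summed value was not called (-0.35, adjusted p = 0.307, edgeR's quasi-likelihood test). The calls of Ifit1, Irf1 and Ifit3b were lost in 6, 5 and 5 of the 16 fits with 1 library left out. Gbp3 belongs to the 48 genes above, but its MRL operated 4 value of 10.2 CPM lay inside the BL6 range of 6.82 to 11.7 CPM.

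**Figure D4:**
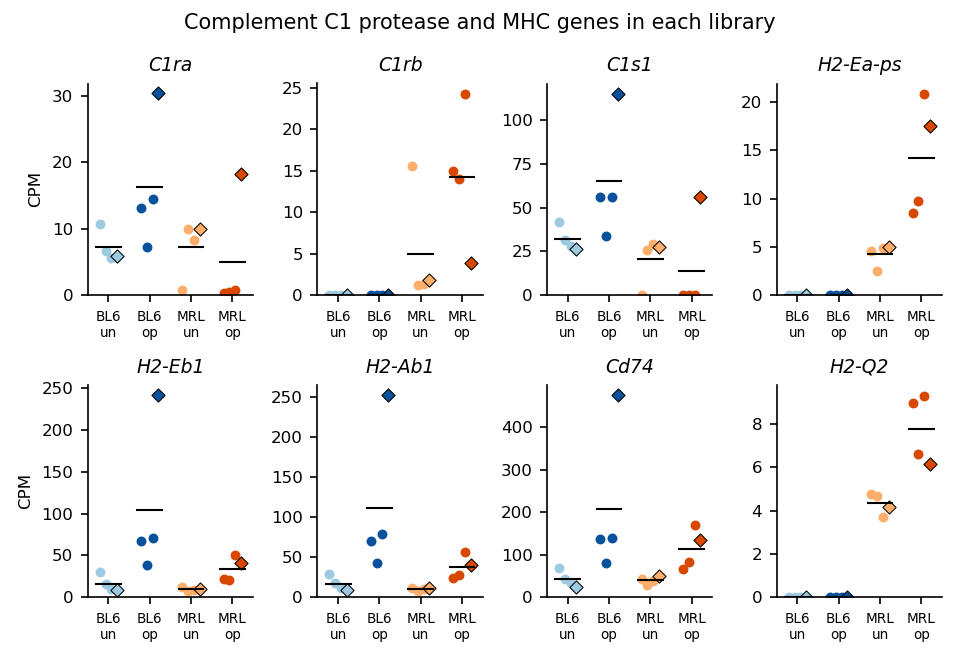
CPM in each library for complement and MHC genes in the 4 groups; points are libraries, diamonds mark replicate 4 and black bars the group means. In MRL operated muscle C1s1 sits near 0 in replicates 1 to 3 and at 56.1 CPM in replicate 4, and H2-Eb1 of BL6 operated 4 stands at 241 CPM.

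Complement genes were called in 2 of 19 cases, both higher in operated MRL muscle: C1rb, and Cd59a, an inhibitor of the membrane attack complex (log2 fold change 0.55, unoperated 0.68). The C1r and C1s serine proteases start the classical pathway, and their mouse copies lie side by side on chromosome 6. C1rb stood at 14.9, 14.01, 24.3 and 3.92 CPM in MRL operated muscle and at no more than 0.0716 CPM, or 2 counts, in any BL6 operated library. C1s1 stood at 55.7, 33.7, 56.0 and 115 CPM in BL6 operated muscle and at 0.0406, 0.0347, 0.0355 and 56.1 CPM in MRL operated muscle. C1ra followed C1s1, with 0.365, 0.416, 0.852 and 18.2 CPM in MRL operated libraries, so MRL operated 4 was like BL6 at C1s1 and C1ra and lowest of the MRL operated group at C1rb. Of the unoperated MRL libraries, the first stood at 0.0917 CPM for C1s1 and 15.6 CPM for C1rb, and the others at 25.9 to 29.3 CPM and 1.20 to 1.79 CPM. C1s1 and C1ra were not called between the strains (adjusted p = 0.325 and 0.288, edgeR's quasi-likelihood test), and the summed value of C1ra and C1rb differed by 0.24 (adjusted p = 0.698).

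No gene of the macrophage, matrix, adipocyte, slow contractile, or oxidation and respiration lists passed the strain test in operated muscle (edgeR's quasi-likelihood test). At an unadjusted p under 0.05 there were 0, 6, 1, 2 and 2 genes in these lists in that order, DESeq2 called 0, 1, 1, 0 and 1, and limma's voom fit called none. The macrophage list had 23 tested genes with a median log2 fold change of -0.50, against 1.19 in unoperated muscle, where none was called either. Its summed level was 591 CPM in MRL unoperated 1, 109 to 152 CPM in the other MRL unoperated libraries and 59 to 219 CPM in BL6 unoperated ones. Without BL6 operated 4 the operated median was 0.29 and 1 gene was called higher. The 38 collagen and matrix genes had a median of -0.41, and 0.46 with 3 called higher without that library. Col1a1, the main fibrillar collagen chain of scar tissue, stood at 264, 192, 435 and 2161 CPM in BL6 operated and at 304, 216, 725 and 718 CPM in MRL operated muscle. The direction of both medians thus turned on BL6 operated 4. In the authors' deposited comparison Cd68 (0.67), Csf1r (0.12), Col1a1 (0.58) and Col3a1 (0.79) were above 0. Eln (-0.93) was below 0 there, and none of these was called. Here the log2 fold changes of Cd68, Csf1r, Col1a1 and Col3a1 were -0.07, -0.67, -0.64 and -0.06. Among markers of other cells, B and plasma cell (3 tested), T cell (1), neutrophil (2), mast cell (4), pericyte and smooth muscle (7) and brown adipocyte (3) lists held no call by edgeR, DESeq2 or limma voom. At an unadjusted p under 0.05 there were 3 pericyte and smooth muscle genes and 1 B and plasma cell gene. Dpp4 was the only call of 8 mesenchymal progenitor markers (12.5%, against 12.9% of all genes). Its log2 fold change was 0.996, and the call was lost in 5 of the 16 fits with 1 library left out. The erythroid list had Hba-a2 as its only call of 5 by edgeR's quasi-likelihood test, DESeq2 called 1 higher and 1 lower, and 3 genes above 0 and 1 below had an unadjusted p under 0.05. Its median log2 fold change was 1.51, and its summed level reached 5737 CPM in MRL operated 3, against 472 to 1055 CPM in the other operated libraries.

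In the denervation and neuromuscular junction list 1 of 20 tested genes was higher and 3 were lower in operated MRL muscle (20% called, against 12.9% of all genes), with a median log2 fold change of -0.26. DESeq2 called 1 higher and 5 lower. In unoperated muscle none was called higher and 6 were lower. Dach2, a transcriptional corepressor that links nerve activity to myogenin, was lower by -1.90, and by -3.76 in unoperated muscle. Chrna1, the acetylcholine receptor alpha subunit, stood at 14.4, 17.9, 17.1 and 12.8 CPM in BL6 operated and at 11.6, 12.5, 8.84 and 9.87 CPM in MRL operated muscle, a small difference (-0.54, adjusted p = 0.0196, edgeR's quasi-likelihood test) without overlap that was present without surgery (-0.64). Cdkn1a, the cell cycle inhibitor p21, stood at 79.9, 86.6, 90.0 and 126 CPM and at 32.7, 28.3, 73.2 and 63.8 CPM (-0.95, unoperated 0.12, not called there). Hdac9 was higher in MRL (0.71), a call lost in 13 of the 16 fits with 1 library left out, and the calls of Cdkn1a and Chrna1 were lost in 2 each (without BL6 operated 4 or MRL operated 1, and without BL6 or MRL operated 3). Myogenin (Myog) stood at 8.03 to 17.9 CPM in BL6 and 8.02 to 15.1 CPM in MRL and was not called (adjusted p = 0.716).

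Of 20 tested ubiquitin ligase, FoxO and autophagy genes, Fbxo30, a ubiquitin ligase subunit needed for muscle loss after denervation, was higher (log2 fold change 0.61) and the transcription factor gene Foxo1 lower (-0.55) in operated MRL muscle. These calls are 10% of the list, against 12.9% of all genes. Both were lost in part of the fits with 1 library left out, 7 and 4 of 16. The 2 ubiquitin ligases best known for atrophy were not called: Trim63 ran from 87.9 to 445 CPM in BL6 and from 52.1 to 189 CPM in MRL, and Fbxo32 from 100 to 279 and from 85.4 to 302 CPM. In the satellite cell and regeneration list, 2 of 14 tested genes were called (14.3%, against 12.9% of all genes). Myh8, the perinatal myosin heavy chain that returns in regenerating fibres, stood at 3.96, 7.51, 3.29 and 5.77 CPM in BL6 operated and at 13.9, 14.05, 15.8 and 17.8 CPM in MRL operated muscle (1.58, adjusted p = 0.000144, edgeR's quasi-likelihood test). The groups did not overlap, and the unoperated difference was 0.62 (95% interval 0.16 to 1.08, not called). Actc1, the cardiac alpha actin that fibres also make in development, was lower (-1.62), as it was without surgery (-1.87).

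Of 19 fast contractile genes Myl1 was the only call (5.26%, against 12.9% of all genes), and none of 13 slow contractile genes was called. Their median log2 fold changes were -0.22 and 0.36, and the slow median was -0.44 without MRL operated 4, whose slow genes summed to 5086 CPM against 1965 to 2176 CPM in the other MRL operated libraries. The 28 fatty acid oxidation and respiration genes had a median of 0.09, with 22 above 0 and no call. Of 16 tested cell cycle and p53 genes, Rb1 was higher and Cdkn1a and Pcna were lower (18.75% called, against 12.9% of all genes). Pcna has a near-identical copy, Pcna-ps2, and their summed value differed by 0.07 with no call (adjusted p = 0.708, edgeR's quasi-likelihood test). Of 26 antioxidant genes, 11.5% were called, against 12.9% of all genes. The thioredoxin reductase gene Txnrd1 (0.79) and the glutathione reductase gene Gsr (0.57) were higher and the peroxiredoxin gene Prdx1 (-1.09) was lower. All 3 were also called in unoperated muscle in the same direction. Prdx1 stood at 170, 212, 180 and 170 CPM in BL6 operated and at 91.6, 87.6, 70.8 and 93.9 CPM in MRL operated muscle. Among the 13 mitochondrially encoded genes 1, the isoleucine transfer RNA gene, was called higher.

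**Figure D5:**
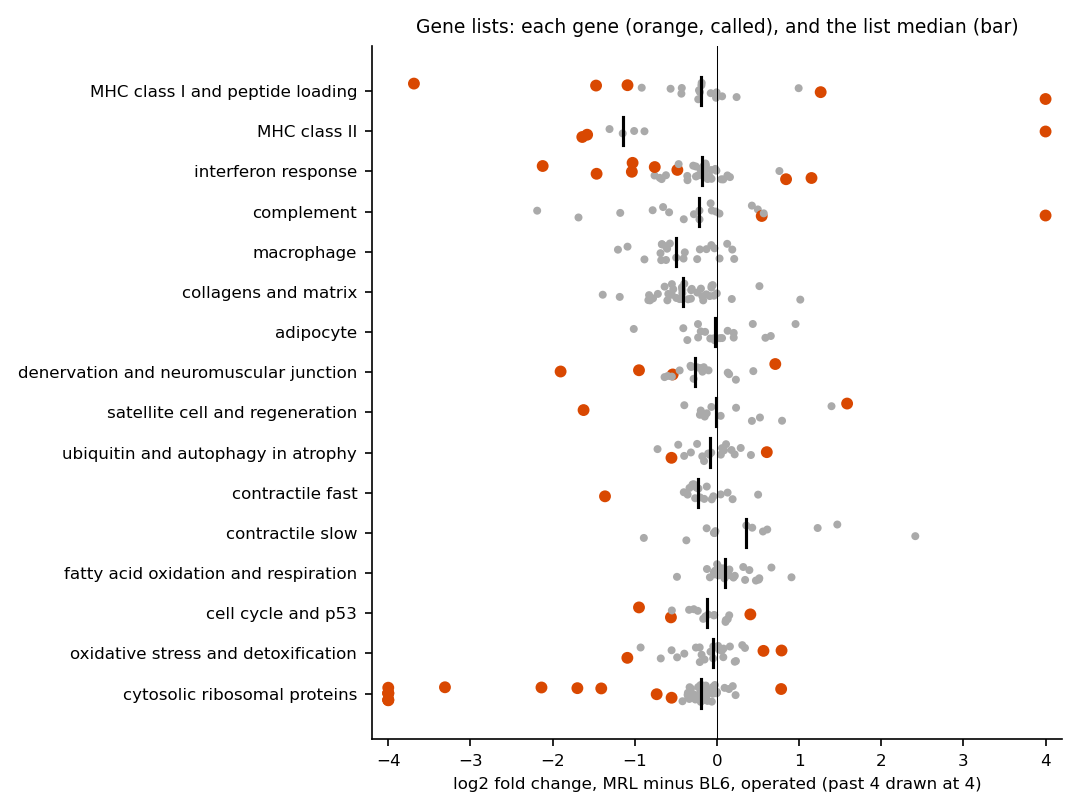
For each gene list, the log2 fold change MRL minus BL6 in operated muscle of its tested genes (points), with called genes marked and the list median as a bar. The macrophage and matrix medians, -0.50 and -0.41, lie below 0 with no called gene, and 55 of the 60 ribosomal protein genes lie below 0.

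Cytosolic ribosomal protein genes, which code for the protein parts of the ribosome, leaned one way in operated muscle. Of 60 tested, 13 were lower and 1 higher in MRL (23.3% called, against 12.9% of all genes). In 55 the log2 fold change was negative, and the median was -0.19. In unoperated muscle 47 of the 60 had positive values, with a median of 0.26, 7 higher and 10 lower. The difference between the strain effects was negative in 58 of 60, and 36 had an unadjusted interaction p under 0.05, all 36 negative. Over all 11709 genes 51.6% were negative in operated muscle and 51.0% for the difference between the strain effects, 15.7% had such a p, and 838 of those 1843 were negative. Of the ribosomal genes, Rpl34 and Rpl35a passed the interaction test after adjustment. Since 21 of the 60 have a near-identical copy by the rule above, the same was read in the other 39. Of these, 37 were negative in operated muscle, 6 were called lower, none higher, and 23 had an unadjusted interaction p under 0.05. Rpl34 and Rpl35a were among the 39. The rule sets a match against the whole longest transcript and misses shorter matches, so the 39 may still include genes with copies. Whether reads placed at such copies add to the lean was not tested. Summed over the 60 genes, BL6 operated libraries held 6877 to 8355 CPM and MRL operated libraries 4613 to 6732 CPM, without overlap, and unoperated libraries 4272 to 4697 and 4019 to 5062 CPM. MRL operated 4 held the 4613 CPM, and the other MRL operated libraries 6118 to 6732 CPM. The operated median stayed negative in every fit with 1 library left out, from -0.25 to -0.11, the last without MRL operated 4. Without that library the median of the 39 was -0.06, against -0.18 with it. The median difference between the strain effects over the 60 was -0.40 without it, against -0.53.

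The called genes were spread over all chromosomes. Of 382 windows of 5 megabases with at least 10 tested genes, the median window had 11.9% of its genes called, and 6 windows had 40% or more. In the window from 45 to 50 megabases of chromosome 14, 11 of 27 genes were called, all 11 higher in MRL, and none of the 11 was called in unoperated muscle. On the X chromosome 51 of 55 called genes were higher in MRL (92.7%), against 835 of 1448 on the autosomes (57.7%), where single chromosomes ran from 38.1% to 76.1%. The X chromosome share was 84.5% to 92.7% with 1 library left out and 96.2% with scaling by totals alone, and in unoperated muscle 19 of 29 X chromosome calls (65.5%) were higher. These shares describe neighbouring genes, which are not independent, and no test was made of them.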

How the data were processed

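RNA sequencing reads from 16 rotator cuff muscle libraries, 4 in each of 4 groups, had been aligned to mm10 with STAR after FastQC checks and tested with edgeR, per the submitters' processing notes, in which no version is given. The authors deposited a table of raw counts for 11710 genes and a table of their own comparisons, with log2 fold changes, log2 CPM and p-values. How reads were counted, whether strand was used and how reads that fit several places were treated are not given in the sources used here. Each of the count columns was matched to its sample by name, and the group came from the same label.

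Counts were fitted with edgeR 4.0.16 (quasi-likelihood test, R 4.3.3) over the 4 groups together, with TMM scaling, removal of genes with low counts (filterByExpr, minimum count 10, which removed 1 gene) and Benjamini-Hochberg adjustment at 0.05 over all tested genes. The contrasts were the strain difference in operated muscle, the same in unoperated muscle, and the difference between these. A difference counted as found after surgery and not without it where operated muscle was called at a log2 change of at least 1, and unoperated muscle was not called with a 95% interval inside -1 to 1. Counts per 1000000 (CPM) use the TMM-scaled library size. Near-identical copies were found with BLAST 2.17.0, matching each gene's longest transcript in GENCODE M21 (GRCm38, the same assembly as mm10) to all transcripts at 95% identity over at least 50% of its length and at least 160 bases. Identifiers of 11708 of the 11710 genes were found in that annotation.

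Genes named for size had a mean of at least 5 CPM over the operated libraries, no clone name and operated groups that did not overlap. They were the 10 largest rises and the 10 largest falls, the 8 largest in each direction among genes found after surgery and not without it, up to 10 by interaction p, and genes called in opposite directions in the 2 strain comparisons. Called genes of the 15 gene lists and 12 marker lists were named where their list is described, also below 5 CPM or with overlapping groups, such as Dach2, Dpp4, Foxo1 and H2-Eb1. Beyond this, the genes found after surgery and not without it were listed by name, clone names included, and other genes, such as Col1a1, C1s1, C1ra, Hba-a1, Kcnc4 and Dad1, were named after their values were seen. A gene that the rule named is not reported here. The members and lists were chosen with earlier results of these data known. Alternatives used DESeq2 1.42.0, limma 3.58.1 (voom), other scalings and filters, the replicate number as a block, and libraries left out. The fitting steps were tested on simulated data.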

Additional observations from a re-analysis of the deposited data

Results flagged for a closer look

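In the 4 libraries of each operated group, the gap between an extreme library and the next was large against the group's range (above Dixon's critical ratio) in 21 of 196 tested cases, of which chance flags about 1 in 20. Of the 21, 10 came from BL6 operated 4 and 7 from MRL operated 4. BL6 operated 4 was the highest of its group for the macrophage gene Cd68 (21.8 CPM), the class II genes Cd74 (474.9 CPM), H2-Aa (279 CPM) and H2-Eb1 (241 CPM), the collagens Col1a1 (2161 CPM) and Col3a1 (2028 CPM), the lipid droplet gene Plin1 (45.9 CPM), Dpp4 (3.04 CPM), Pianp (1.42 CPM) and H2-Q2 (0.0284 CPM, a single count). BL6 operated 2 was highest for H2-Ea-ps (0.0387 CPM, also a single count) and BL6 operated 1 for Rb1 (18.8 CPM).

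MRL operated 4 was the highest of its group for Ankrd1 (511 CPM), C1ra (18.2 CPM), C1s1 (56.1 CPM), Hdac9 (8.84 CPM), Lypla1 (55.9 CPM) and the slow myosin Myh7 (201 CPM), and the lowest for Opn1mw (12.8 CPM). MRL operated 1 was highest for Actc1 (280.0 CPM) and MRL operated 3 for Rps18 (3.91 CPM).

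The strain difference changed with surgery, by edgeR's interaction test, in 14 of the genes named in the report. On the log2 scale, operated minus unoperated, the difference was 1.21 for Ddx3y, 1.19 for Bche, 1.18 for Kcnc4, 1.18 for Pcmtd2, 0.95 for Nup160, 0.92 for Tmf1, 0.91 for Gcn1l1 and 0.76 for Matr3. It was -0.96 for Ccdc28b, -1.04 for Rpl35a, -1.17 for Hspa8, -1.17 for Rpl34, -1.69 for Tppp3 and -1.87 for Tcea1. Of the 16 fits that left out 1 library, 13 called the difference for Ccdc28b and 8 for Matr3, and the other 12 genes were called in 2 to 6 of them.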

How the results depend on the processing

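The 1507 operated calls were 575 in a fit of the 8 operated libraries alone, and 1030 to 1842 with 1 library left out. The 1216 unoperated calls were 821 to 1572 with 1 library left out. The 48 genes found after surgery and not without it were 36 to 104 with 1 library left out, and 44 to 57 under the other alternatives. These sizes hide changes of members. Of the 48, 46 stayed in the set with DESeq2, 39 with the replicate block and 29 with scaling by library totals. Without BL6 operated 4 it kept 33 of them, and without MRL operated 4 it kept 25. The fit of the 8 operated libraries called 23 of the 48 in operated muscle. The 29 interaction calls were 14 with scaling by library totals, 250 with DESeq2 and 1 to 69 with 1 library left out. Leaving out replicate 4 of both operated groups and summing near-identical copies were chosen after seeing the data. The first gave 2190 unoperated and 58 interaction calls, and 22 of the 48 genes remained in the set. The second gave 1433 operated and 49 operated-only genes. With the replicate number as a replicate block there were 1354 operated, 1146 unoperated and 2 interaction calls, and 44 operated-only genes. The deviations of same-numbered replicates from their group means had correlations of 0.18, 0.45, -0.10 and 0.12 for operated numbers 1 to 4, and 0.36, -0.11, 0.20 and 0.19 for unoperated ones. Of the BL6 libraries, operated 2 and unoperated 1 and 3 correlated best with the MRL library of their own number and the other 5 did not. As 2 of the 8 correlations were below 0, the numbers were not taken to pair the libraries across strains. Whether they pair operated with unoperated libraries within a strain was not checked.

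Among single genes, log2 fold changes of 10 genes that were not called changed sign. Acta1 was 0.060 with library totals. Without replicate 4 of both groups Cd68 was 0.67, Col1a1 0.49, Col3a1 0.69, Csf1r 0.10, Myh7 -0.65 and Eif2s3y -0.00046. With voom Cd68 was 0.18 and Col3a1 0.34, and with the block 0.14 and 0.18. With 1 library left out the values ran from -0.21 to 0.13 for Acta1, -0.32 to 0.77 for Cd68, -0.96 to 0.73 for Col1a1, -0.38 to 0.98 for Col3a1, -0.97 to 0.29 for Csf1r, -0.68 to 3.01 for Myh7, -0.41 to 0.015 for Myog, -0.019 to 0.29 for Fabp4 and -1.01 to 1.57 for Plin1. In operated libraries 3 counts, the limit that a count of 0 allows, came to 0.079 to 0.1218 CPM, so a gene with a few counts in 1 strain, such as H2-Q2 in BL6, has no interpretable fold change.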
